A study of Mus musculus with 7 samples.

Results

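Ins1, Ins2, and Iapp encode the hormones of the pancreatic beta cell, and the open chromatin called around these 3 genes is described here in alpha, beta, and delta cells. All peaks that overlap the GENCODE gene body of a member or the 50 kb on either side were taken, and where a list gives the same interval more than once it was counted once. The members are 3 of 21911 protein-coding genes. Their windows held 153 peaks, which merged across libraries into 104 of 834695 regions, and 19 of these regions, of 133698 in all, were called in at least 2 libraries.

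ATAC-Seq, in which the Tn5 transposase cuts and tags accessible DNA, was run on cells sorted by FACS from healthy mouse islets, with 2 alpha, 3 beta, and 2 delta libraries. All mice carried mIns1-H2b-mCherry, a mouse Ins1 promoter that drives a nuclear red protein in beta cells, together with Rosa-LSL-YFP and either Gcg-Cre or Sst-Cre, so that YFP marks alpha or delta cells. Animals were pooled by sex and the cell types were sorted from the same animals, so beta libraries can share mice with alpha or delta libraries, whereas the tests below treat the 7 libraries as independent. Their ages are not given in the sources used here. The study lists alpha 1, beta 2, and delta 1 as female and alpha 2, beta 1, beta 3, and delta 2 as male. If its numbers are those of the labels, beta 2 is the only female beta library used here, and sex was not tested. The transgene adds an Ins1 promoter to the genome of the cells of every library, so reads of the transgene and of the endogenous Ins1 promoter cannot be told apart. Each of the 3 beta lists has an alpha or delta name but a beta label, and the cell type was taken from the label.

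Insulin is made from proinsulin, which is cut and packed into granules with zinc, and it lowers blood glucose. Mice have the usual Ins2 gene and Ins1, a copy that arose by retroposition and kept part of the Ins2 promoter. Iapp encodes amylin, which is secreted with insulin from the same granules. The A boxes of these promoters are bound by homeodomain proteins such as Pdx1, their E box by Neurod1 with its partners, their MAF element by Mafa, and their CRE by bZIP proteins.

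Ins1 (ENSMUSG00000035804.5) is a gene of 1180 bp on the plus strand of chromosome 19, at 52264297 to 52265476, with 1 annotated transcript. Ins2 (ENSMUSG00000000215.11) lies on the minus strand of chromosome 7, at 142678656 to 142743381. It has 9 annotated transcripts, of which 7 start between 142679533 and 142679726, 1 at 142699510, and 1 at 142743381. The start at 142679726 is called the main start here, and the window holds Igf2, Gm49394, Mir483, Igf2os, and Gm7290 as well. Iapp (ENSMUSG00000041681.2) lies on the plus strand of chromosome 6, at 142298423 to 142303961, within the bounds of Slco1a5, which is read from the opposite strand. All coordinates are GRCm38 (mm10).

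The 250 bases before each main start are shown because the promoter peaks below fall on them. They were read 5′ to 3′ on the strand of the gene from RefSeq GRCm38.p6, and capitals mark TAAT (the core of an A box), CATCTG (of the E box), TGCTGA (of the MAF element), and TGACG (of the CRE), searched on both strands. In Ins2, CATCTG and TGCTGA share bases.
Ins1, chr19:52264047-52264296, plus strand: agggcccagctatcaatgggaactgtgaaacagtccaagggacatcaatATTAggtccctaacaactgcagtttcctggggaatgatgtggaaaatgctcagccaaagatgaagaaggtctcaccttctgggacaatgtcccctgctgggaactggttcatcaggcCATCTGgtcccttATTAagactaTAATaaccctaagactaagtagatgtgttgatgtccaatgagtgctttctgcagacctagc
Ins2, chr7:142679727-142679976, minus strand: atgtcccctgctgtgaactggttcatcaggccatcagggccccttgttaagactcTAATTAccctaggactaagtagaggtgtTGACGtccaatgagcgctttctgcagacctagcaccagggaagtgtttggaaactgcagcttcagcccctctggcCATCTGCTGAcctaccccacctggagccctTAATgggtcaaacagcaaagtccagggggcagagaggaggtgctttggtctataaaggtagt
Iapp, chr6:142298173-142298422, plus strand: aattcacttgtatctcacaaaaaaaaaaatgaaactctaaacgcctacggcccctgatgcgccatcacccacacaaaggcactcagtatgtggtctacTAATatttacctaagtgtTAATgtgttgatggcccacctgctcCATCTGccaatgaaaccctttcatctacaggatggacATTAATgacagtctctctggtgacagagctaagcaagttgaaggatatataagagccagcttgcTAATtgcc
Each of the 3 stretches held CATCTG once on the strand of the gene, at -84 to -79 in Ins1, -92 to -87 in Ins2, and -109 to -104 in Iapp, counted back from the annotated start. Among 32851 RefSeq starts, 14.4% had CATCTG in the 250 bases before them. TAAT was found 3 times before Ins1, 3 times before Ins2, and 5 times before Iapp, and 54.9% of all starts had it. TGCTGA (16.1% of starts) and TGACG (17.8%) were each found once before Ins2 and were not among these letters before Ins1 or Iapp. A match is a description of the letters and not a bound site.

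Over the 2 insulin genes with the 1000 bases before their main starts, 952 base pairs aligned with 87.9% identity. The main start of Ins2 aligned with a base 134 bp downstream of the annotated start of Ins1, so the 2 stretches above are offset by that much. The CATCTG of Ins1 and that of Ins2 are therefore not aligned with each other, despite like distances from their annotated starts. The Ins1 bases opposite the CATCTG and TGCTGA of Ins2 lie downstream of the annotated Ins1 start and were not searched. The longest run without a mismatch was 56 bp, and 7 of 2131 stretches of 50 bases, the read length, occurred in both genes. None of the 617 such stretches in the Ins1 promoter region described below occurred in the compared part of Ins2.

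Peak lists differed far more in length than in their number of strong peaks. They held 75860 to 158066 peaks in 6 libraries and 518503 in beta 1, whereas those at or past a -log10 q of 2, a q-value of 1% or less, numbered 25903 in beta 1 and 32047 to 52057 in the others. In beta 1, 73.0% of peaks shared 1 -log10 p value, 2.26, and of its 66 peaks in the 3 windows 55 lay at or below that value. The lists hold no reads outside peaks, so no detection limit could be computed for an absent peak. The study lists fewer unique reads for each of the 3 beta libraries used here than for either alpha library, and the part of depth in absent or weak beta peaks was not tested. For this reason each peak was given its percentile by -log10 p within its own list, with 0 for no peak. For the regions called in all 7 libraries the median percentile was 97.8 in beta 1 and 86.4 to 93.6 in the others, so beta 1 percentiles ran high.

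To ask whether chromatin at the hormone promoters was called open in beta cells more than in alpha and delta cells, the best peak within 1 kb of any transcript start was compared. The Ins1 promoter had a peak in all 7 libraries, as did 46.6% of protein-coding genes. Its percentile was 98.7, 41.7, and 86.7 in beta 1, 2, and 3, 21.2 and 53.3 in alpha 1 and 2, and 77.2 and 13.9 in delta 1 and 2. The highest values were those of beta 1 and beta 3, but beta 2 lay below alpha 2 and delta 1, so the groups overlapped. The mean was 75.7 ± 30.0 (SD, n = 3) in beta and 41.4 ± 29.4 (SD, n = 4) in alpha and delta cells. The difference of 34.2 did not reach a p of 0.05 (two-sided exact permutation test, p = 0.200, adjusted p = 0.982 over all genes by Benjamini-Hochberg). With 35 assignments of the libraries, the smallest p is 0.0286, and 0.630% of genes had a p of at most 0.05 with beta higher and 2.06% with beta lower. Without beta 1 the Ins1 difference was 22.8 (exact permutation test, p = 0.533).

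Most of these Ins1 peaks belong to a region at chr19:52263814-52264479, which covers the 250 bases shown above and the first bases of the gene. It was called in every library but alpha 1, whose value comes from a peak 954 bp upstream of the start, in a region that alpha 2 shared. The -log10 q at the Ins1 promoter was 7.34 in beta 1, 6.39 in beta 3, and 3.42 in delta 1, and it lay between 0.736 and 1.82 in the other 4 libraries. Thus the stricter threshold of 2 was passed in 2 of 3 beta, 1 of 2 delta, and 0 of 2 alpha libraries. Fold enrichment over the local background was 7.03, 3.39, and 5.96 in beta and 2.75, 3.24, 4.46, and 2.86 in alpha and delta replicates. The peaks of beta 1, 2, and 3 spanned the annotated start, from -0.382 to 0.163 kb, from -0.159 to 0.0510 kb, and from -0.381 to 0.182 kb. In this region the alpha 2 peak ended on the start, and those of delta 1 and 2 ended upstream of it. Counted from the base that aligns with the main start of Ins2, the summits lay at -322, -140, and -123 bp in beta 1, 2, and 3, at -330 and -473 bp in delta 1 and 2, and at -466 bp in alpha 2.

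**Figure D1:**
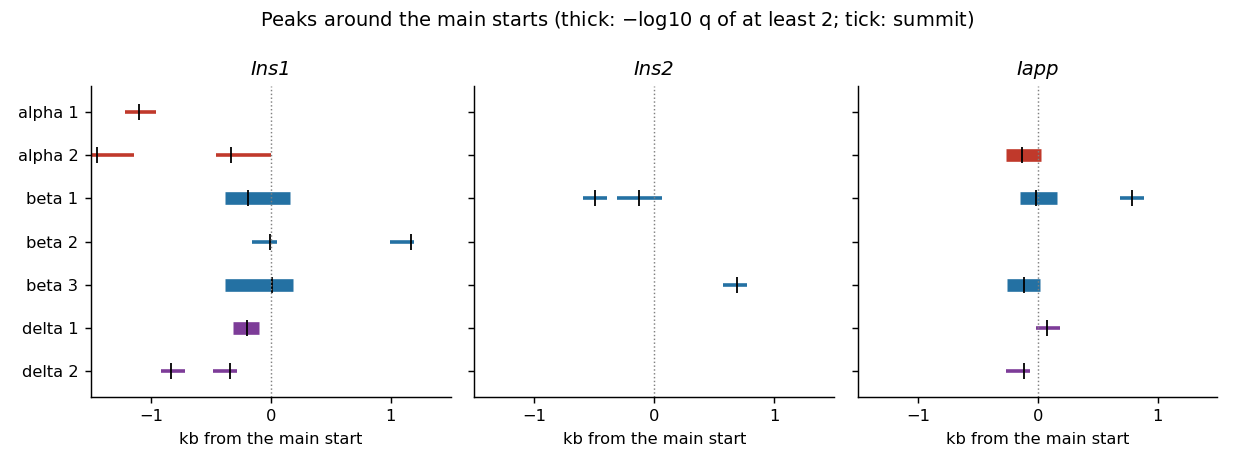
Peaks within 1.5 kb of the main start of Ins1, Ins2, and Iapp, with libraries in rows, kb from the start in the direction of transcription on the x axis, thick bars for a -log10 q of at least 2, thin bars for lower values, and ticks at summits. At Ins1, thick bars are seen in beta 1, beta 3, and delta 1, at Ins2 in none, and at Iapp in alpha 2, beta 1, and beta 3.

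The Ins2 promoter was called in few libraries. Its best percentile was 85.6, 0, and 45.3 in beta 1, 2, and 3, 0 and 0 in alpha 1 and 2, and 0 and 35.2 in delta 1 and 2. These peaks do not lie at the same start. Beta 1 had a peak over the main start, at chr7:142679663-142680038 with its summit at -124 bp and a -log10 q of 1.07, and a weaker one with its summit at -494 bp. The peak of beta 3 near the main start had its summit at 689 bp, within the gene, and a percentile of 0.303, so its value of 45.3 comes from the start of the long transcript. In delta 2 the value comes from the start at 142699510. Beta 2, both alpha libraries, and delta 1 had no peak within 1 kb of any Ins2 start. No Ins2 promoter peak passed a -log10 q of 2, which was so for 32.8% of protein-coding genes.

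For the Ins2 promoter the mean percentile was 43.6 ± 42.8 (SD, n = 3) in beta and 8.80 ± 17.6 (SD, n = 4) in alpha and delta cells. The difference of 34.8 did not reach a p of 0.05 (two-sided exact permutation test, p = 0.257, adjusted p = 0.982). It was 13.9 without beta 1 (exact permutation test, p = 0.733) and 56.7 without beta 2 (exact permutation test, p = 0.0667, the smallest that 6 libraries allow here). At the start of the long transcript alone it was 15.1 (exact permutation test, p = 0.429).

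The Iapp promoter peak lies at chr6:142298158-142298609 and was called in 5 libraries, as were the promoters of 4.88% of genes. Its percentile was 96.1, 0, and 78.1 in beta 1, 2, and 3, 0 and 78.9 in alpha 1 and 2, and 8.04 and 35.2 in delta 1 and 2. Alpha 2 was therefore level with beta 3, and beta 2 had no Iapp promoter peak. The -log10 q was 5.60 in alpha 2, 3.55 in beta 3, 2.44 in beta 1, 1.93 in delta 2, and 0.199 in delta 1. Summits lay at -133 bp from the Iapp start in alpha 2, -16 and -118 bp in beta 1 and 3, and 74 and -114 bp in delta 1 and 2. The mean percentile was 58.1 ± 51.1 (SD, n = 3) in beta and 30.5 ± 35.6 (SD, n = 4) in alpha and delta cells, a difference of 27.5 that was within the spread (two-sided exact permutation test, p = 0.457, adjusted p = 1.00). Without beta 1 it was 8.54 (exact permutation test, p = 1.00), and without beta 2 it was 56.6 (exact permutation test, p = 0.200). Without alpha 1, alpha 2, or beta 3 it was 17.4, 43.7, or 17.5, and among peaks past a -log10 q of 2 it was 7.65 (exact permutation test, p = 0.657).

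**Figure D2:**
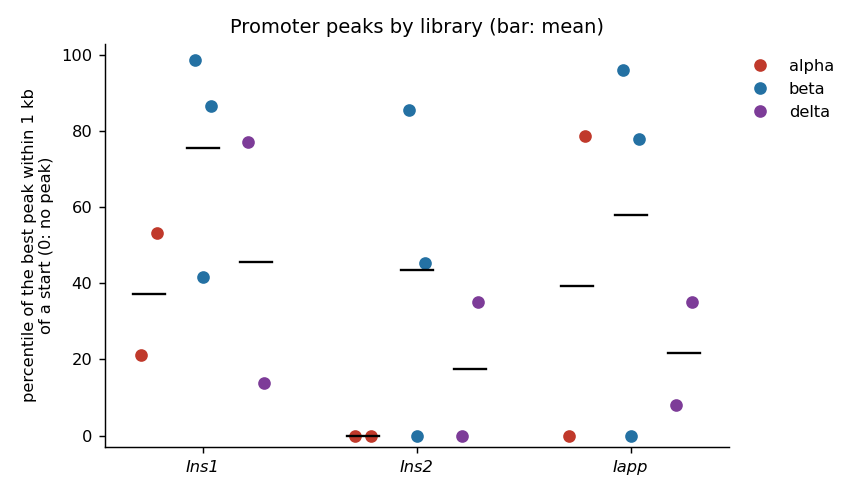
Percentile of the best peak within 1 kb of a transcript start of each gene, by library, where 0 means no peak, points are libraries, and bars are means of the 2 alpha, 3 beta, and 2 delta replicates. For each gene the highest point is beta 1, while beta 2 lies at 41.7 for Ins1 and at 0 for Ins2 and Iapp.

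Sequencing lane, as given in the file names, was shared unevenly. Alpha 1, alpha 2, and beta 1 were on lane 6 and the other 4 libraries on lane 7, so lane cannot be told apart from alpha against delta. Beta promoter percentiles exceeded the others by 61.4 for Ins1, 85.6 for Ins2, and 56.6 for Iapp within lane 6. Within lane 7 they did so by 18.6, 5.06, and 17.5. By percentile, beta was thus higher on average in each lane, with the larger gaps in lane 6, where beta 1 is the only beta library. In lane 7, fold enrichment was higher on average in beta for Ins1 alone. For Ins2 it was 0 and 3.21 in beta 2 and 3, and 0 and 3.36 in delta 1 and 2. For Iapp it was 0 and 4.69 in these beta and 2.15 and 3.36 in these delta libraries. The part of lane in the result was not tested.

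Away from the promoters, the region called in most libraries was an Iapp region at chr6:142289297-142290225, centred at -8.66 kb from the Iapp start and within an intron of Slco1a5. Of the 19 regions of at least 2 libraries it was the only one called in all 7, where 13.3% of all such regions were. Its best percentile was 95.5 and 92.0 in alpha, 97.9, 83.4, and 88.0 in beta, and 95.0 and 84.3 in delta replicates. By -log10 q it reached 20.7 and 17.3 in alpha, 4.94, 4.17, and 7.14 in beta, and 20.8 and 10.8 in delta replicates. In beta 2 the best peak lies at chr6:142289807-142290050, with its summit at -8500 bp. Another beta 2 peak, with its summit at -8880 bp, had a -log10 q of 1.82 and a percentile of 37.1. Summits of the best peaks in the other libraries lay between -8877 and -8742 bp. By its best peak the region was stronger than the Iapp promoter in every library. Every beta value of -log10 q lay below every alpha and delta value, as it did for 33.6% of the 17759 regions called in all 7 libraries, whereas the percentiles overlapped. Fold enrichment was 12.2 and 10.4 in alpha, at most 6.82 in beta, and 12.8 and 8.70 in delta replicates, and was separated in the same direction in 27.3% of such regions.

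The 300 bases around the median summit of this Iapp region are shown because it is the strongest shared region of the 3 loci, with the same letters in capitals. The best beta 2 peak lies outside them.
Iapp upstream region, chr6:142289438-142289737, plus strand: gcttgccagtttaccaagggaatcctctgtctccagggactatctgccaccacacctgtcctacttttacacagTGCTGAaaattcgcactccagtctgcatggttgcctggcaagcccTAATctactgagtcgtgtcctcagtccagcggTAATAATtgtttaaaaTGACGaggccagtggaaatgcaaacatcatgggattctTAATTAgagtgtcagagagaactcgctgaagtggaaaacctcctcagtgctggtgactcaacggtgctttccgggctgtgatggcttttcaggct
TAAT was found 5 times, TGCTGA once, and TGACG once. Among the regions called in all 7 libraries, 51.4% held TAAT, 21.6% TGCTGA, 26.7% TGACG, and 18.6% CATCTG in a stretch of this length.

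**Figure D3:**
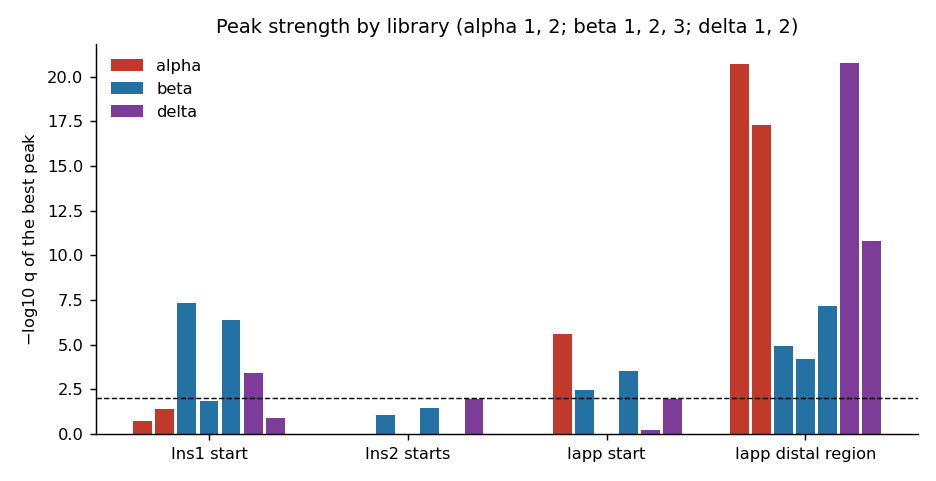
The -log10 q of the best peak by library at the Ins1 promoter, at any Ins2 start, at the Iapp promoter, and in the Iapp region at -8.66 kb, with bars in the order alpha 1, 2, beta 1, 2, 3, delta 1, 2, a missing bar where no peak was called, and a dashed line at 2. In the upstream Iapp region all bars pass the line, from 4.17 in beta 2 to 20.8 in delta 1, and at Ins2 none does. The beta 2 bar of that region is a peak with its summit at -8500 bp, apart from the summits of the other libraries.

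Across the windows, 20 regions were called around Ins1, 50 around Ins2, and 34 around Iapp. Of the 104, 85 were called in 1 library alone, and 51 of these were beta 1 alone, next to 84.0% and 49.8% of all regions. In at least 2 libraries, 4 Ins1 regions, 8 Ins2 regions, and 7 Iapp regions were found. No region of the 3 windows was called in all 3 beta libraries and in no other, as were 0.592% of regions of at least 2 libraries.

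Regions called in at least 2 beta libraries and in no alpha or delta library were found in the Ins2 window alone. These 3 of 19 regions, where 10.7% of all such regions are of this kind, were each called in beta 1 and beta 3, as were 4.65% of all such regions. They lie at chr7:142630792-142631029, 48.8 kb downstream of the main start, at chr7:142660576-142660924, and at chr7:142677447-142677804, 1729 bp beyond the nearest Ins2 start. The region at chr7:142660576-142660924 lies on an exon of Igf2os and within introns of Igf2 and Gm49394. Its nearest start is one of Igf2, 281 bp away. In beta 3 the -log10 q of the 3 regions was 1.43, 0.517, and 0.909, and in beta 1 it was 0.0774 for each, so all 6 peaks were weak.

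Igf2 encodes a growth factor and lies next to Ins2 in an imprinted domain. A region at chr7:142659414-142659720, on exons of Igf2 and Igf2os, was called in alpha 1, alpha 2, and delta 2 and in no beta library. Its -log10 q was 3.12, 1.81, and 1.93. Of all regions of at least 2 libraries, 4.36% were called in at least 3, with alpha and delta but no beta peaks. The neighbouring region at chr7:142658712-142659305, also on an exon of Igf2, had the highest median percentile of the Ins2 window, 21.2. It was called in alpha 1, alpha 2, beta 1, and delta 1 with a -log10 q of 0.736, 1.81, 1.10, and 0.951. These were the 2 regions of the Ins2 window called in 3 or more libraries, and both lay at Igf2.

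Other shared regions were chosen after their values were seen. At chr19:52252227-52252723, centred at -11.8 kb from the Ins1 start, a peak passed a -log10 q of 2 in alpha 1 (2.16), alpha 2 (2.95), and beta 3 (4.47), and beta 1 had one of 0.0774. At chr6:142281673-142282324, centred at -16.4 kb from the Iapp start, a peak was called in 5 libraries, with a -log10 q of 2.16 in alpha 1, 1.10 and 3.04 in beta 1 and 2, and 2.98 and 1.93 in delta 1 and 2. The Iapp window ends near the start of Pyroxd1, where a region was called in every library but beta 2. Its -log10 q there was 8.68 and 20.9 in alpha, 1.10 and 0.517 in beta 1 and 3, and 6.65 and 3.21 in delta replicates.

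**Figure D4:**
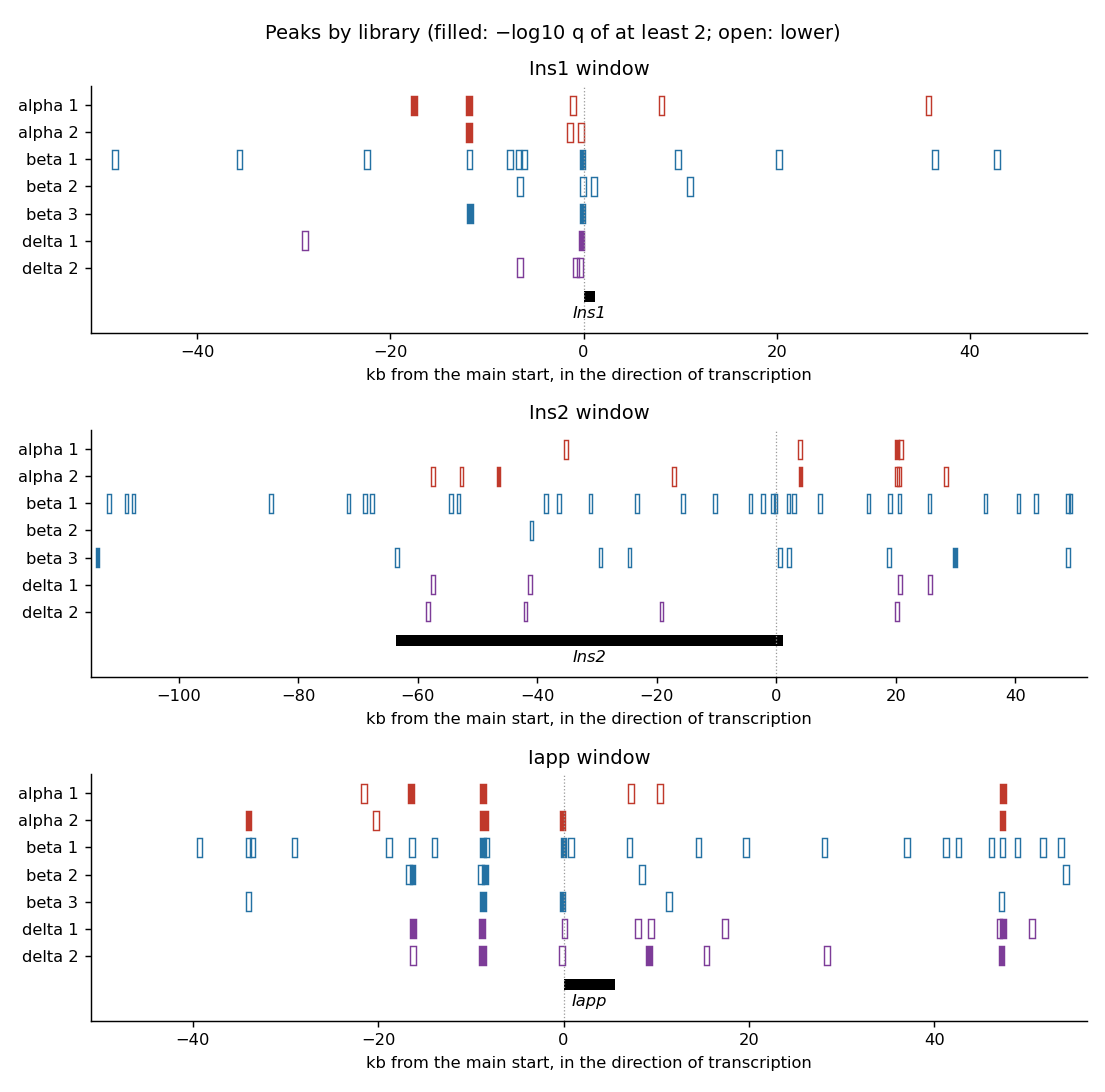
Peaks of the 7 libraries in the windows of Ins1, Ins2, and Iapp, with kb from the main start on the x axis, filled boxes for a -log10 q of at least 2, open boxes for lower values, boxes and genes drawn at least 0.6 kb wide, and a dotted line at the main start. The Iapp window has 1 column of filled boxes in all 7 libraries, at -8.66 kb, and most of the boxes of beta 1 are open.

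The windows of the insulin genes were not rich in peaks. Peak density was the number of peaks per kb of window, divided by that of the genome in the same list. For Ins1 it was 1.03 and 0.722 in alpha, 0.623, 1.18, and 0.518 in beta, and 0.341 and 1.07 in delta replicates. For Ins2 it was 0.505 and 1.18 in alpha, 0.989, 0.182, and 1.43 in beta, and 0.419 and 0.872 in delta replicates. For Iapp it was 1.18 and 1.15 in alpha, 1.15, 1.70, and 1.24 in beta, and 1.47 and 2.38 in delta replicates. The Ins1 window lay below the median of all genes, 0.926 to 1.41 depending on the library, in 6 of 7 libraries and the Ins2 window in 5 of 7. Beta densities overlapped those of alpha and of delta at every member. Alpha and delta densities overlapped at Ins1 and Ins2, whereas at Iapp both delta values lay above both alpha values.

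Beta minus alpha and delta density was -0.0138 for Ins1 (two-sided exact permutation test, p = 1.00), 0.123 for Ins2 (p = 0.743 by the same permutation test), and -0.184 for Iapp (p = 0.743 by the same permutation test). None reached a p of 0.05, with adjusted p-values of 1.00, 0.945, and 0.945 over all genes. Of all genes, 1.31% had a p of at most 0.05 with beta denser and 2.25% with beta less dense. The test takes alpha and delta as 1 group. At Iapp the mean density of beta, 1.36, lay between those of alpha, 1.17, and delta, 1.93. With only the short Ins2 transcripts and 50 kb around them, density was 0.822 and 1.45 in alpha, 1.14, 0.296, and 1.82 in beta, and 0.512 and 1.07 in delta replicates, with the libraries in the same order.

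**Figure D5:**
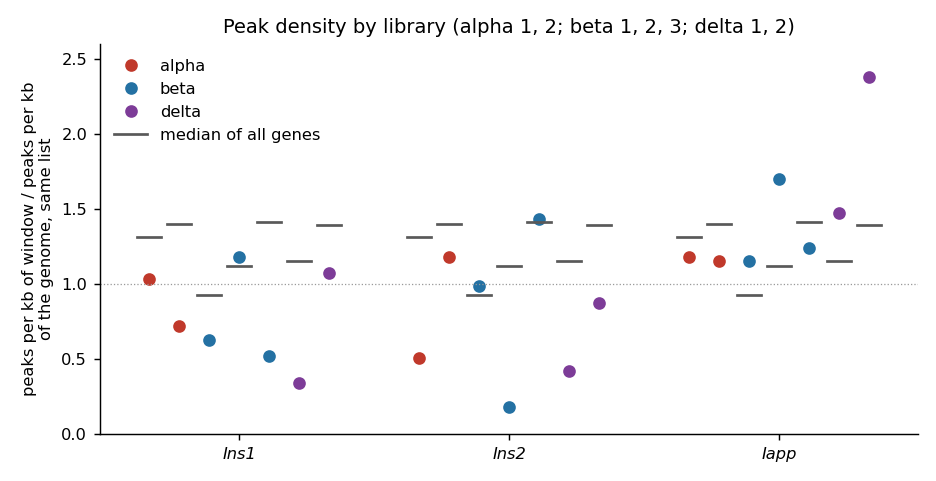
Peak density of the 3 windows by library, relative to the genome-wide density of the same list, with points for libraries in the order alpha 1, 2, beta 1, 2, 3, delta 1, 2, bars for the median of all protein-coding genes, and a dotted line at 1. The Iapp points lie at or above 1.15, and the lowest point is Ins2 in beta 2, at 0.182.

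The genes whose window density varied most like that of a member over the 7 libraries were Brcc3 (Pearson r = 0.974), AF366264 (0.952), and Sbspon (0.948) for Ins1. They were Sil1 (0.988), Gm28042 (0.984), and Pla2g4b (0.984) for Ins2, and Styk1 (0.982), Krcc1 (0.979), and Gm3002 (0.976) for Iapp. Of 21745 to 21750 genes compared, 0.161%, 0.276%, and 0.556% had an r of at least 0.9 with Ins1, Ins2, and Iapp. The 7 points share list length and depth between genes, and windows of Gm28042 and Pla2g4b overlap each other, so these are descriptions.

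Genes that control or serve the insulin genes were examined in the same way. Of 12 regulators, 11 had a promoter peak in all 7 libraries, next to 46.6% of all genes, and 8 passed a -log10 q of 2 in each, next to 34.3% of all genes. Pdx1, which binds the A boxes and was named after its values were seen, as were Slc30a8 and Sst, had percentiles of 60.7 and 78.0 in alpha, 87.6, 0, and 85.9 in beta, and 81.5 and 64.2 in delta replicates, so that beta 2 again lacked a peak. Mafa, which binds the MAF element, had 95.9 and 96.9 in alpha, 98.9, 93.0, and 93.3 in beta, and 95.8 and 92.6 in delta replicates. Neurod1, the E box factor, had 90.5 to 99.3 over the 7 libraries, and Nkx6-1, a beta cell homeodomain protein, 90.8 to 98.9. None of these regulators was called in beta cells alone.

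Of 8 genes for proinsulin processing and granule loading, 4 had a promoter peak in all 7 libraries, a share near the 46.6% of all genes. Cpe, which trims the cut hormone, had percentiles of 96.6 to 99.8, and Pcsk2, a proinsulin convertase, 89.8 to 99.4. Slc30a8, which carries zinc into granules, had 78.5 and 84.0 in alpha, 84.7, 18.2, and 0 in beta, and 37.8 and 55.8 in delta replicates. Of 5 other islet hormone genes, Ppy and Ghrl had no promoter peak in any library. Gcg, the glucagon gene, had percentiles of 94.1 and 91.6 in alpha and 47.1 in delta 2, with no peak in any beta library or delta 1. Sst, the somatostatin gene, had 95.5 in beta 1, 17.1 and 14.4 in delta, and no peak elsewhere.

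As a check of the labels, all 6 alpha markers had a promoter peak with a -log10 q of at least 2 in both alpha libraries, next to 2 of 6 in each beta library and 5 and 4 in the delta libraries. Of 4 delta markers, 3 did so in each delta library, 3 in each alpha library, and 1, 0, and 0 in beta 1, 2, and 3. With weaker peaks included, beta 1 had a peak at all 4 delta markers and the highest summed percentile of that list, 321, next to 0 and 0 in beta 2 and 3, 229 and 232 in alpha, and 279 and 251 in delta replicates. Percentiles of beta 1 ran high, as described above, so its sums cannot be set directly against those of the other libraries. For the alpha list the sum was 562 and 549 in alpha, 185 to 265 in beta, and 412 and 319 in delta replicates. Of 7 beta markers, among them the 3 members, 4, 3, and 5 did so in beta, 3 and 4 in alpha, and 5 and 4 in delta replicates, so this list did not set the beta libraries apart. The summed percentile of the beta list was 320 to 661 in beta, 342 and 470 in alpha, and 444 and 375 in delta replicates. No promoter of 6 acinar or 4 immune markers passed that threshold in any library, 1 of 4 endothelial markers did in delta 1, and 0 to 2 of 4 duct markers did per library. A peak in a sorted population cannot be told apart from one in other cells carried along in the sort.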

How the data were processed

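Peak lists of 7 libraries were used, 1 per sample, with cell types from the labels. The authors trimmed single-end 50 bp reads with Trimmomatic after FastQC and aligned them with Bowtie 2 to GRCm38.p4 from which mitochondrial DNA had been left out. After Picard had marked duplicates and blacklisted stretches were dropped, MACS2 was run on each library by itself. Tool versions and the MACS2 threshold are not given in the sources used here, and the lowest -log10 p was 2.01 in every list. Fold enrichment is the authors' MACS2 ratio of signal to local background, and the -log10 p and -log10 q values are the authors' as well. The score column and peak signal outside calls were not used. The shift and extension of reads set in MACS2, which fix peak widths and summits, are not given in the sources used here.

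Repeated intervals were counted once at the highest -log10 p, and peaks overlapping by at least 1 bp were merged across lists. Starts came from GENCODE vM21 and sequence from RefSeq GRCm38.p6, whose promoter table matched Ins1 and Iapp and was used for the background shares. Insulin gene sequences were aligned locally with Biopython 1.88. Beta was compared with alpha and delta by two-sided exact permutation tests, adjusted over 21911 genes and not over the 6 tests alone as first planned. Pairs of cell types have a smallest p of 0.100 (alpha or delta against beta) or 0.333, so they were not tested. The labels call the replicates biological, and animals were pooled. The study sorted the cell types from the same animals, so libraries may not be independent. No replicate pair shared over 1% of intervals. Regions named are those within 1 kb of a member start, in all 7 libraries, in 2 or more beta libraries alone, in 3 or more alpha and delta libraries without beta, or with the highest median percentile, with the exceptions stated. The members, lists, and tests were chosen with earlier results of these data known. Alternatives were a -log10 q threshold of 2, the 50000 best peaks, other windows and overlaps, fold enrichment or -log10 p in place of the percentile, blocking by replicate number, and leaving out 1 library. Python 3.11.15, numpy 2.4.6, pandas 2.3.3, scipy 1.17.1, matplotlib 3.10.9, and samtools 1.23.1 were used, and the permutation test was tested on simulated data.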

Additional observations from a re-analysis of the deposited data

How the results depend on the processing

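No promoter or density difference of Ins1, Ins2, or Iapp reached a p of 0.05 under any alternative, although 6 libraries, or the block, could not reach it. Of 186 alternative values, 155 kept their direction or, for counts, stayed within 1.5 times. These include counts of 0 that stayed 0 and differences with a replicate block, which cannot change. They also include the Ins1 density difference with 50000 peaks per list, which was 0. The total is therefore no measure of stability. The Ins1 promoter difference was positive under all 16 alternatives. That of Ins2 was -2.06 with 50000 peaks per list, and that of Iapp was -0.0804 in fold enrichment, both opposite in sign. The difference was 15.1 for Ins2 at the gene's 5′ end only and 7.65 for Iapp at a -log10 q threshold of 2. Leaving out 1 library in turn gave 22.8 to 51.2 for Ins1, 13.9 to 56.7 for Ins2, and 8.54 to 56.6 for Iapp. The Ins1 density difference turned positive with a -log10 q of at least 2 (0.279), with 10 kb on each side (0.169), and in covered bases (0.0696), that of Ins2 negative with 50000 peaks per list (-0.0552). Leaving out 1 library gave densities differing by -0.218 to 0.114 for Ins1 (above 0 without alpha 1, 0.0656, without beta 1, 0.0619, without beta 3, 0.114, and without delta 2, 0.0784), -0.159 (without beta 3) to 0.466 for Ins2, and -0.353 to 0.0946 (without delta 2) for Iapp. Regions of at least 2 libraries numbered 2 for Ins1, 0 for Ins2, and 4 for Iapp at a -log10 q threshold of 2, and 2, 1, and 4 with 50000 peaks per list. With coverage of 0.5 of a region, chosen after seeing the data as were fold enrichment and -log10 p in place of the percentile, they numbered 2 for Ins1, and the Iapp region was then called in all 7 libraries 0 times. Without 1 library they numbered 3 to 4, 4 to 8, and 6 to 7. Regions of beta alone in the Ins2 window numbered 0 at both stricter thresholds and 0 when all 3 beta libraries were required. Without 1 library they numbered 0 to 1 for Ins1, 0 to 3 for Ins2, and 0 to 1 for Iapp, with 0 for Ins2 without beta 1 or beta 3. Regions called in every library numbered 0 to 1 for Ins1, 0 for Ins2, and 1 to 2 for Iapp. The causes were not tested. At a -log10 q of at least 2 the Ins2 promoter percentile was 0 in every library, so no difference remained. That setting is not among the alternatives counted for the Ins2 promoter. With a replicate block the promoter differences were 34.2, 34.8, and 27.5 for Ins1, Ins2, and Iapp (exact permutation tests within replicate number, p = 0.222, 0.333, and 0.444, smallest possible 0.111), and no call changed. Deviations of same-numbered libraries from their group means correlated at -0.0719 to 0.516 over 6 pairs, 4 of them above 0.1, and those of different numbers at -0.516 to 0.419 over 10 pairs. Alpha and delta have 2 libraries each, so their deviations are equal and opposite and the correlations mirror each other. The pairs are thus not separate evidence and cannot decide whether the numbers pair the samples. The numbers were not taken to pair the samples, as not every pair passed 0.1. Pools were by sex, and in the study's list same-numbered beta libraries differ in sex from the alpha and delta libraries. The replicate block therefore mixes sexes if the study's numbers are those of the labels.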
